A study of Mus musculus with 29 samples.

Results

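The BAFF and APRIL system was followed through 5 genes, the ligands Tnfsf13b (BAFF) and Tnfsf13 (APRIL) and the receptors Tnfrsf13c (BAFF-R), Tnfrsf13b (TACI) and Tnfrsf17 (BCMA), among 13982 genes listed in 14 RNA libraries. The members were chosen by name, and all 5 were listed. Both ligands belong to the tumor necrosis factor superfamily and are made mainly by myeloid and stromal cells. BAFF binds all 3 receptors, whereas APRIL binds TACI and BCMA. BAFF-R carries the survival signal of mature B cells through noncanonical NF-kB, TACI regulates class switching and limits B cells, and BCMA keeps plasma cells alive. An excess of BAFF rescues autoreactive B cells and causes lupus-like disease in mice, and BAFF is a drug target in lupus.

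All mice were (NZBxNZW)F1 mice, a cross that develops lupus spontaneously with no treatment or transgene, so no library came from a healthy strain. The tertiary lymphoid structures (TLS) were dissected by hand from proteinuric kidneys and compared with kidney tissue and lymph node. The proteinuric group held 4 kidney libraries (mice H6, H20, H115 and H117, aged 39, 36, 25 and 32 weeks), 3 TLS libraries (mice H6, H20 and H115) and 3 lymph node libraries (mice H6, H20 and H117). Lymph nodes of 3 mice labelled antibody-positive, that is with antibodies to double-stranded DNA, for under 5 weeks (D10, D11 and L25, aged 28, 29 and 18 weeks) and of 1 young mouse (C45, aged 4 weeks) completed the series, and 15 further kidney samples from another sequencer were not analysed here. Each library is 1 mouse, but tissues of a mouse share the animal, and kidney and TLS share the organ. The RNA kit was miRNeasy for the antibody-positive lymph nodes and TRIzol for the rest, so that kit and disease stage cannot be told apart. The antibody-positive lymph nodes also came from younger mice (18 to 29 weeks) than the proteinuric ones (32 to 39 weeks). Age and disease stage within lymph node therefore cannot be told apart either.

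The libraries held between 343825 and 443379 reads. Ribosomal RNA took 59.6% of the reads of the kidney of mouse H117, 32.8% of the lymph node of mouse H6 and 24.6% of the TLS of mouse H115. The summed level of 11 nephron and collecting duct genes was 8059 to 22260 normalised reads in kidney, 2709 to 8848 in TLS and 2.43 to 12.3 in proteinuric lymph node. That of 7 B-cell genes was 0 to 20.2 in kidney, 324 to 466 in TLS and 611 to 838 in proteinuric lymph node, and that of 7 urothelial genes was 135 to 748 in TLS and 0 to 22 in kidney. TLS libraries therefore held both kidney and lymphocyte transcripts. A normalised read is a read divided by the size factor of its library, and 3 reads, taken as the floor of a single library, were worth 2.36 to 5.32 normalised reads.

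The members were of low abundance. Summed over the 14 libraries, Tnfrsf13c had 395 reads, Tnfrsf13b 195, Tnfsf13b 80, Tnfrsf17 71 and Tnfsf13 5. Tnfsf13 had a read in 3 libraries. The other 4 members passed the filter of a mean listed value of 5, and they passed it through TLS and lymph node, since kidney had between 0 and 4 reads of each of them.

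The Tnfsf13 gene needs its neighbours to be read. It lies on chromosome 11 of GRCm38 at chr11:69682846-69685784 on the minus strand, downstream of Tnfsf12, which encodes TWEAK. The annotation also holds Tnfsfm13, a readthrough gene whose transcripts join Tnfsf12 exons to Tnfsf13 exons and encode the fusion ligand TWE-PRIL. Of the 1637 exon bases of Tnfsf13, 983 lay in exons of Tnfsfm13, and 221 lay opposite the antisense gene Tnfsf13os. Of its 720 coding bases, 82.1% were shared with Tnfsfm13, and 129 were its own. The 129 bases are printed because a read of their strand can belong to APRIL but not to TWE-PRIL (chr11:69685131-69685259, minus strand, the start codon in capitals), and the junction shows where the fusion transcript enters the shared part (30 bases, Tnfsf13 exon bases in capitals).
Tnfsf13 own coding bases: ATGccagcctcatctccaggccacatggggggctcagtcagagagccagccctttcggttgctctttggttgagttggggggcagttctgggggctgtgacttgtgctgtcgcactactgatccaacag
Tnfsfm13 junction: ctccgtttgtgccagACAGAGCTGCAAAGC

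**Figure D1:**
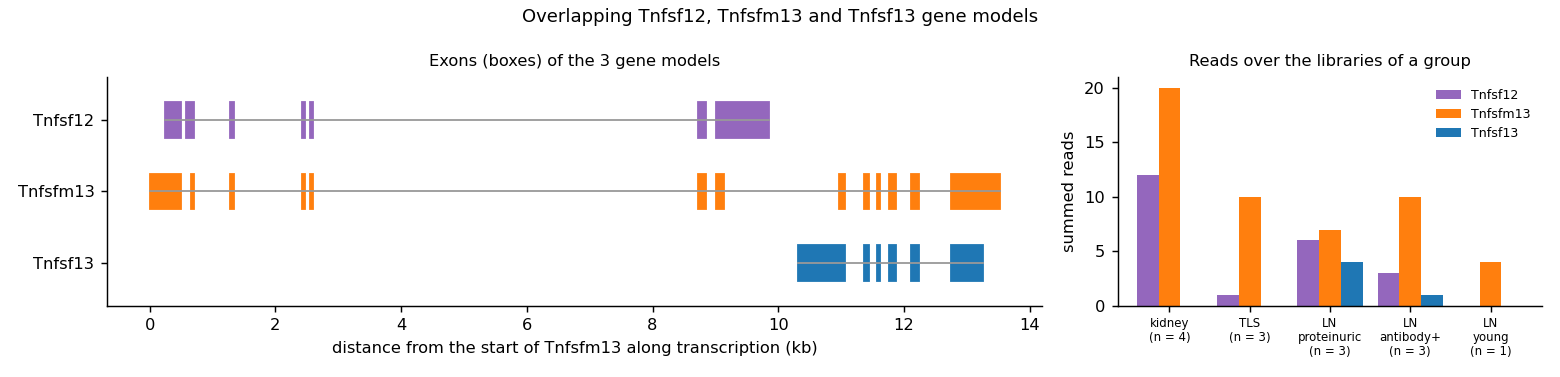
The left panel maps the exons of Tnfsf12, Tnfsfm13 and Tnfsf13 by distance from the start of Tnfsfm13 (kb, boxes are exons), and the right panel gives the reads of each gene summed over the libraries of a group (bars). Tnfsfm13 had 20 reads in kidney and 10 in TLS, where Tnfsf13 had none.

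Reads assigned to Tnfsf13 were nearly absent. Tnfsf13 had 0 reads in each of the 4 kidney and 3 TLS libraries, 0, 3 and 1 reads in the proteinuric lymph nodes of mice H6, H20 and H117, 1, 0 and 0 in the antibody-positive lymph nodes of mice D10, D11 and L25, and 0 in the young lymph node. No library stood above 3 reads, so no difference in APRIL was detectable at this depth, and a count of 0 does not show that the gene was silent. The readthrough gene Tnfsfm13 had 7, 7, 5 and 1 reads in the kidneys of mice H6, H20, H115 and H117, and 5, 4 and 1 in the TLS of mice H6, H20 and H115. In the lymph nodes it had 3, 0 and 4 reads in proteinuric mice H6, H20 and H117, 3, 0 and 7 in antibody-positive mice D10, D11 and L25, and 4 in the young mouse. Its level therefore overlapped between all tissues. Tnfsf12 had 12 reads over the 4 kidneys, 1 over the 3 TLS, and 6 and 3 over the proteinuric and antibody-positive lymph nodes. How a read on the shared exons was assigned between Tnfsf13 and Tnfsfm13 is not given in the sources used here, and neither is strandedness, so reads of APRIL, TWE-PRIL and Tnfsf13os cannot be told apart by these counts.

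BAFF (Tnfsf13b, chr8:10006467-10039072, plus strand, GRCm38) was higher in TLS and lymph node than in kidney, and its highest values were in TLS. The kidneys of mice H6, H20, H115 and H117 had 0, 4, 0 and 0 reads, and the TLS of mice H6, H20 and H115 had 18, 12 and 4. After normalisation, TLS held 9.69 ± 5.46 normalised reads (SD, n = 3) and kidney 0.843 ± 1.69 (SD, n = 4). Each TLS library was above each kidney library, but the TLS of mouse H115, at 4.36, was close to the kidney of mouse H20, at 3.37. That TLS value was also below the floor of the kidney of mouse H117, where 3 reads were worth 5.32 normalised reads. The proteinuric lymph nodes of mice H6, H20 and H117 had 4, 5 and 9 reads, or 5.94 ± 1.28 normalised reads (SD, n = 3), which lay within the range of the TLS libraries. Antibody-positive lymph nodes had 6, 7 and 5 reads (mice D10, D11 and L25, 5.99 ± 0.590 normalised reads, SD, n = 3), and the young lymph node had 6. Across the 7 lymph nodes BAFF thus stayed between 4.74 and 7.28 normalised reads, a narrower range than the 4.36 to 15.3 of the 3 TLS.

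The receptors are the B-cell side of the system. BAFF-R (Tnfrsf13c, chr15:82221743-82224369, minus strand) had no read in any kidney. The TLS of mice H6, H20 and H115 had 25, 17 and 21 reads, and the proteinuric lymph nodes of mice H6, H20 and H117 had 32, 38 and 70. Normalised, this was 19.2 ± 5.09 in TLS and 46.3 ± 10.3 in lymph node (SD, n = 3 each), and all 3 lymph nodes were above all 3 TLS. Antibody-positive lymph nodes had 50, 71 and 28 reads in mice D10, D11 and L25 (48.7 ± 17.8 normalised reads, SD, n = 3), and the young lymph node had 43, or 38.5 normalised reads.

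TACI (Tnfrsf13b, chr11:61126755-61149372, plus strand) followed the same order at a lower level. The kidneys of mice H6 and H20 had 1 read each and the other kidneys 0. Reads in TLS were 13, 10 and 8 (mice H6, H20 and H115), and in proteinuric lymph node 16, 20 and 26 (mice H6, H20 and H117). The normalised levels were 0.432 ± 0.499 in kidney (SD, n = 4), 9.20 ± 1.64 in TLS and 21.1 ± 2.12 in proteinuric lymph node (SD, n = 3 each), with no overlap between the 3 tissues. In the antibody-positive lymph nodes of mice D10, D11 and L25 there were 25, 33 and 16 reads (24.3 ± 6.59 normalised reads, SD, n = 3), and in the young lymph node 26.

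BCMA (Tnfrsf17, chr16:11313812-11320074, plus strand), the receptor of plasma cells, varied widely between mice. It had no read in kidney, 10, 3 and 3 reads in the TLS of mice H6, H20 and H115, and 8, 14 and 4 in the proteinuric lymph nodes of mice H6, H20 and H117. The levels of 4.70 ± 3.30 normalised reads in TLS and 9.36 ± 5.37 in lymph node (SD, n = 3 each) overlapped. Antibody-positive lymph nodes had 7, 2 and 10 reads (mice D10, D11 and L25, 6.62 ± 4.79 normalised reads, SD, n = 3) and the young lymph node 10. At 2 or 3 reads, several of these libraries were at the floor.

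**Figure D2:**
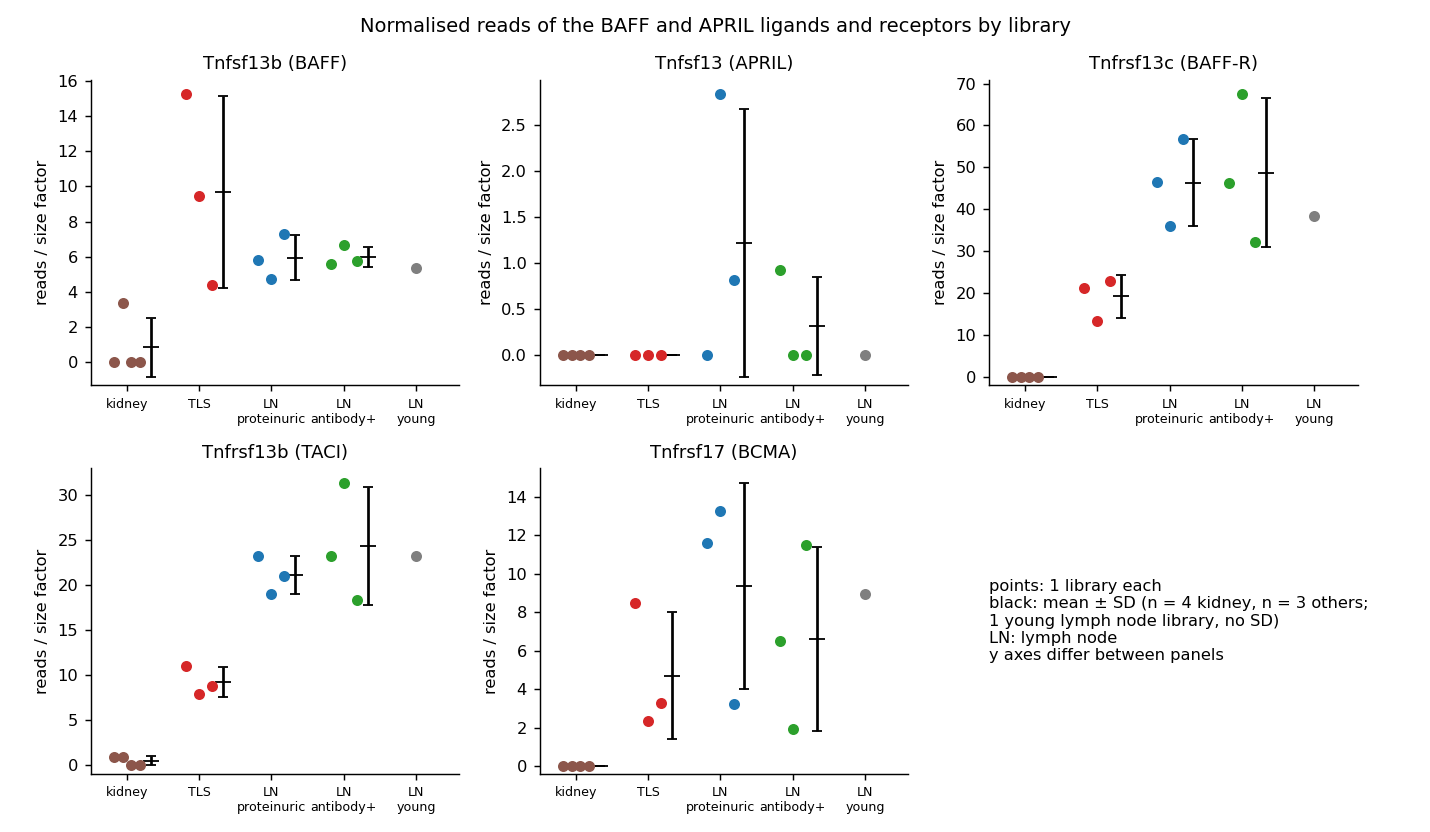
Each panel gives the normalised reads (reads divided by the size factor) of a member in each of the 14 libraries by group, with the mean and SD in black, and the y axes differ. BAFF-R and TACI rose from kidney through TLS to lymph node without overlap between the tissues of proteinuric mice, whereas BAFF in TLS spanned 4.36 to 15.3 around the lymph node values.

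Levels can be compared between genes only per length. Per kb of annotated exon, the proteinuric lymph nodes held 22.6 ± 5.04 normalised reads of BAFF-R, 11.5 ± 6.59 of BCMA, 7.43 ± 0.747 of TACI and 0.865 ± 0.186 of BAFF (SD, n = 3 each). In TLS the order was the same, with 9.35 ± 2.48 for BAFF-R, 5.77 ± 4.05 for BCMA, 3.25 ± 0.577 for TACI and 1.41 ± 0.794 for BAFF. BAFF-R thus had the highest mean on this scale, but in TLS its range of 6.52 to 11.2 overlapped with the 2.89 to 10.4 of BCMA, and BCMA and TACI did not differ beyond their spread in either tissue. The choice of length mattered below the first place: per kb of coding bases, TACI (28.2 ± 2.84) stood above BCMA (16.9 ± 9.68) in lymph node, and BAFF (10.1 ± 5.71) above BCMA (8.47 ± 5.95) in TLS.

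The promoters of the receptors are shown because BAFF-R and TACI were alike across the 14 libraries (Pearson r = 0.989), and that of BCMA for contrast, since it was less like them (0.795 and 0.806). BCMA had 71 reads in all, against 395 for BAFF-R and 195 for TACI. The part of counting error in its lower r was not tested. Each line is the 250 bases before the transcription start in RefSeq (GRCm38.p6), 5′ to 3′ on the strand of the gene. Capitals mark matches, on either strand, to the motifs searched, which were the PU.1 core GAGGAA, the octamer ATGCAAAT, the interferon-stimulated response element core, the TATA box TATAAA and the NF-kB site. The positions are chr15:82224381-82224630 (minus), chr11:61126505-61126754 (plus) and chr16:11313559-11313808 (plus).
Tnfrsf13c promoter: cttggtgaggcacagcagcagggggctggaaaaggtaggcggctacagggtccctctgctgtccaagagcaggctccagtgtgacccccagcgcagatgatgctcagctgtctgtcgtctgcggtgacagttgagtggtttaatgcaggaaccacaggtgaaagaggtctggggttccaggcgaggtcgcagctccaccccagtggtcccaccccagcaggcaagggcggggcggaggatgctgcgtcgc
Tnfrsf13b promoter: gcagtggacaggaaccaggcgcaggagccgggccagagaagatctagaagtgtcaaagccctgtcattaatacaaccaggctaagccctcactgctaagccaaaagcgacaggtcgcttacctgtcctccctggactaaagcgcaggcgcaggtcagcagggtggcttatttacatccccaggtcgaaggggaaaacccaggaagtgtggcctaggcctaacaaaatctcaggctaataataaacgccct
Tnfrsf17 promoter: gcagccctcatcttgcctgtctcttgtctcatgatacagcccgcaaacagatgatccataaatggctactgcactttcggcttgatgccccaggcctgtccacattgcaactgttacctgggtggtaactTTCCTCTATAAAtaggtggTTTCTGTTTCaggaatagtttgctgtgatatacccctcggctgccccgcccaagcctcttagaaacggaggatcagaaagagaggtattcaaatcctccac
The Tnfrsf17 promoter held a PU.1 core and an interferon-stimulated response element core on the minus strand, beginning 120 and 101 bases before the start, and between them, sharing no base with them, a TATA box beginning 114 bases before the start. Of 32851 promoters of this length, 23.3%, 2.98% and 12.4% held a match to these 3 motifs, and 1.60% and 7.25% one to the octamer and the NF-kB site. The promoters of the other 4 members, Tnfsf13b and Tnfsf13 included, held none of these letters in this window. A match is not a binding site.

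The first comparison asked how TLS differ from the kidney in which they form. By limma, BAFF, BAFF-R and TACI were called higher in TLS, and BCMA was not. By edgeR and DESeq2 all 4 were called higher. In limma on log2(listed value + 1), with Benjamini-Hochberg adjustment over 7382 genes, BAFF-R differed by 3.27 on the log2 scale (SE 0.30, adjusted p = 4.97e-05), TACI by 2.09 (SE 0.26, adjusted p = 0.000297) and BAFF by 1.95 (SE 0.44, adjusted p = 0.0101). BCMA differed by 1.52 (95% interval 0.40 to 2.64, adjusted p = 0.0687). Of all genes tested 14.7% were called, 8.62% as higher in TLS, against 3 of the 4 members tested. In all 4 the TLS and kidney libraries did not overlap, as in 25.4% of all genes. Since the members passed the filter through TLS and lymph node, this direction was favoured from the start, and these shares are a description. The kidney of mouse H117 had 0 reads of each member, but its floor was 5.32 normalised reads. BAFF in the TLS of mouse H115 (4.36) and BCMA in those of mice H20 and H115 (2.36 and 3.27) lay below this floor. Its 0 reads could not separate the tissues at those levels. Without that kidney, limma still called 3 members. The listed value contains 1 added read and the log scale another unit, which understates changes of low genes. From pooled reads, BAFF-R in TLS was 23.3-fold and BCMA 5.93-fold above a floor of 3 reads over the 4 kidneys. These 2 values leave out the counting error of the TLS reads and are not lower limits. TACI was 17.2-fold higher, with a counting interval of 4.38 to 148 because kidney had 2 reads in all, and BAFF was 9.44-fold higher (3.37 to 36.6). These intervals cover counting error only.

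In bulk tissue, more cells of a type and more RNA per cell cannot be told apart. The 7 B-cell genes were all called higher in TLS, with a median log2 difference of 2.94, and 8 of 8 T-cell genes (median 2.66), 7 of 8 tested plasma cell genes and 2 of 10 macrophage and monocyte genes were also called higher. Of the 7 B-cell genes, 4 had no read in any kidney, Ms4a1 (CD20), Pax5, Blk and Fcrla. The median of the macrophage and monocyte genes was 0.92, and their summed level was 588 to 874 normalised reads in TLS and 85.2 to 408 in kidney. The part of these cell numbers in the member differences was not tested by this comparison. BCMA was called in 5 of 15 alternatives, with adjusted p of 0.0273 and 0.0318 in the edgeR quasi-likelihood test (TMM and DESeq2 size factors), 0.00928 in DESeq2, and 0.0414 and 0.0478 in limma with no filter on low values and on log2(value + 0.1), while BAFF had an adjusted p of 0.0507 when only kidney and TLS were fitted. Without the TLS of mouse H6, BAFF and BCMA did not pass the filter. Without the 3 libraries of highest ribosomal RNA share, BCMA was below the filter and the other 3 were called. In limma 636 genes were called higher in TLS and 448 higher in kidney, in edgeR with DESeq2 size factors 624 and 234, and in edgeR with TMM, which moved the median of all genes from 0.016 to 0.12, 662 and 170.

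The second comparison asked how closely TLS resemble the lymph node. By limma, both receptors of B cells were called higher in proteinuric lymph node than in TLS, whereas BAFF was not. By edgeR and DESeq2 neither receptor was called. BAFF-R differed by 1.21 on the log2 scale (95% interval 0.52 to 1.90, limma adjusted p = 0.0286) and TACI by 1.06 (0.45 to 1.68, adjusted p = 0.0298). BCMA differed by 0.74 (-0.45 to 1.94, adjusted p = 0.468) and BAFF by -0.44 (-1.45 to 0.58, adjusted p = 0.637), so that neither was called and the interval for BAFF allowed a level in TLS up to 1.45 higher on the log2 scale. Of all genes 10.6% were called, and 1.69% as higher in lymph node, against 2 of the 4 members, and the libraries did not overlap in the same 2 members and in 26.8% of genes. Pooled reads gave a lymph node level of BAFF-R 2.51 times that of TLS (counting interval 1.85 to 3.44), and of TACI 2.26 times (1.45 to 3.6). In the mice with both tissues the direction was the same: TACI was at 11 and 23.2 normalised reads in TLS and lymph node of mouse H6 and at 7.86 and 18.9 in mouse H20. BAFF-R was at 21.2 and 46.4 in mouse H6 and at 13.4 and 36.0 in mouse H20. BAFF was higher in TLS in both mice, at 15.3 and 5.80 in mouse H6 and at 9.43 and 4.74 in mouse H20.

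These 2 calls were close to the threshold. TACI lost its call in 13 of 18 alternatives and BAFF-R in 9 of 18. Neither was made by edgeR with TMM (adjusted p = 0.0947 for TACI and 0.111 for BAFF-R) or with DESeq2 size factors (0.0533 and 0.0688), by the DESeq2 Wald test (0.166 and 0.0786), without the lymph node of mouse H117 (0.0967 and 0.124) or of mouse H6 (0.0865 and 0.0754), without the TLS of mouse H20 (0.106 and 0.118), or without the 3 libraries of highest ribosomal RNA share (0.140 and 0.0753), all by limma unless named. TACI alone lost its call without the lymph node of mouse H20 (0.0725) or the TLS of mouse H115 (0.0971). Over all alternatives the differences stayed between 0.85 and 1.20 on the log2 scale for TACI and between 0.99 and 1.38 for BAFF-R. The 7 B-cell genes had a median difference of 0.81 in the same direction, and none of them was called. The 8 T-cell genes also moved in this direction, with 5 called higher in lymph node, a median of 1.44 and a summed level of 349 to 392 normalised reads in lymph node and 111 to 202 in TLS. Their part in the receptor differences was not tested.

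To set each receptor against the cells that carry it, its reads were divided by the reads of 3 B-cell genes of the same library (Cd79a, Cd79b and Ms4a1). TLS held 5.56, 5.07 and 8.24 BAFF-R reads per 100 B-cell reads in mice H6, H20 and H115, and lymph node 9.12, 5.33 and 11 in mice H6, H20 and H117. These values overlapped. The difference was 0.38 on the log2 scale in favour of lymph node, and an exact two-sided permutation test gave p = 0.3. TACI was at 2.89, 2.99 and 3.14 reads per 100 B-cell reads in TLS and at 4.56, 2.81 and 4.07 in lymph node, which also overlapped (difference 0.28, exact permutation p = 0.4). Relative to B-cell reads, no difference of either receptor between TLS and lymph node was thus detected, although 3 libraries against 3 cannot give a p below 0.1. Antibody-positive lymph nodes had 8.2, 7.1 and 6.71 BAFF-R reads and 4.1, 3.3 and 3.84 TACI reads per 100 B-cell reads. Between the receptors, the ratio was steady: TLS had 52.0, 58.8 and 38.1 TACI reads per 100 BAFF-R reads and the 7 lymph nodes 37.1 to 60.5.

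BCMA was set against 2 genes of antibody-secreting cells, Mzb1 and Igj (the joining chain). TLS had 0.599, 0.208 and 0.464 BCMA reads per 100 such reads in mice H6, H20 and H115, and lymph node 0.450, 0.954 and 0.294 in mice H6, H20 and H117. The groups overlapped (difference 0.31 on the log2 scale in favour of lymph node, exact permutation p = 0.7). The direction turned when Igj was left out (-0.32).

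BAFF was set against 4 myeloid genes (Csf1r, Cd68, Itgam and Adgre1). The TLS of mice H6, H20 and H115 had 13.1, 15.6 and 7.27 BAFF reads per 100 myeloid reads, and the proteinuric lymph nodes of mice H6, H20 and H117 had 7.55, 3.19 and 4.39. TLS was higher by 1.23 on the log2 scale, with 1 pair of libraries in reverse order, the TLS of mouse H115 and the lymph node of mouse H6 (exact permutation p = 0.2). The 6 proteinuric and antibody-positive lymph nodes together mix disease stage, age and RNA kit. Against them, the difference was 1.29 (exact permutation p = 0.0476, where the smallest possible is 0.0238). The same test gave p = 0.262 for BAFF-R and 0.143 for TACI per B-cell reads and 1 for BCMA per plasma cell reads, and adjusted over these 4 permutation tests the value for BAFF was 0.190. Antibody-positive lymph nodes ranged from 3.47 to 5.47 and the young lymph node was at 4.84. The kidneys were not tested, since the kidney of mouse H117 had 8 myeloid reads, under the minimum of 20. The kidney of mouse H20 had 4 BAFF reads for 81 myeloid reads, and those of mice H6 and H115 had 0 for 79 and 44. All 8 permutation tests of these ratios with 3 libraries a group had an adjusted p of 0.933 or 1. BAFF is also made by stromal cells, whose reads are not in this denominator.

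**Figure D3:**
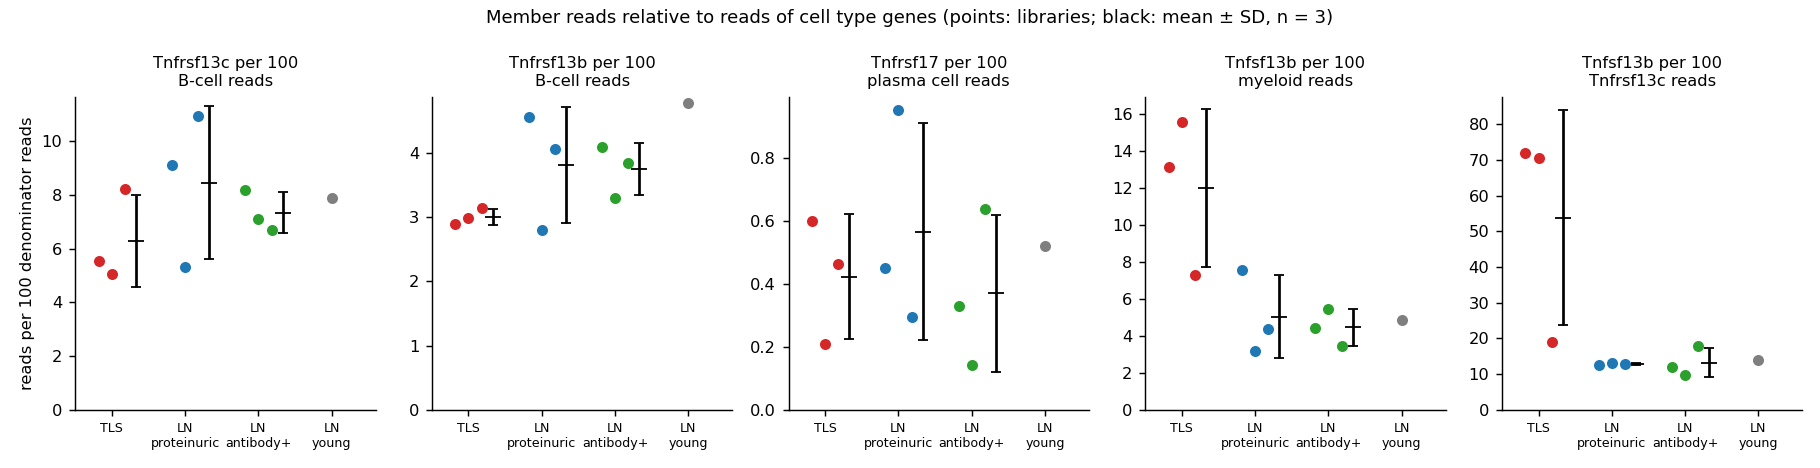
Points give the reads of a member per 100 reads of the denominator named above each panel, by library, for TLS and lymph node (mean and SD in black, n = 3; 1 young lymph node). TLS and lymph node overlapped in the 3 receptor panels, while BAFF per BAFF-R read was higher in each TLS than in each lymph node.

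BAFF reads were also set against BAFF-R reads of the same library. This ratio was chosen after its values were seen and is a description with no test. The TLS of mice H6, H20 and H115 had 72.0, 70.6 and 19.0 BAFF reads per 100 BAFF-R reads. The proteinuric lymph nodes had 12.5, 13.2 and 12.9 (mice H6, H20 and H117), the antibody-positive lymph nodes 12, 9.86 and 17.9 (mice D10, D11 and L25) and the young lymph node 14. All 7 lymph nodes were below all 3 TLS, but the TLS of mouse H115 was close to them and rested on 4 BAFF reads (95% interval of the ratio of the counts 4.75 to 56.4, by the exact binomial method).

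The comparison of kidney with lymph node spans both. All 4 members tested were called higher in proteinuric lymph node, where 43.8% of genes were called and 20.8% as higher in lymph node. The log2 differences were 4.48 for BAFF-R (SE 0.30, limma adjusted p = 4.25e-07), 3.16 for TACI (SE 0.26, adjusted p = 2.03e-06), 2.26 for BCMA (SE 0.51, adjusted p = 0.00326) and 1.52 for BAFF (SE 0.44, adjusted p = 0.0137). The libraries did not overlap in these 4 members and in 48.8% of all genes. However, BAFF in the lymph node of mouse H20 (4.74) and BCMA in that of mouse H117 (3.24) were below the floor of the kidney of mouse H117 (5.32). Here too the filter, passed through TLS and lymph node, favoured this direction. BAFF lost its call without the lymph node of mouse H117 (adjusted p = 0.0625). This comparison shares its kidney libraries with that of TLS and its lymph nodes with the one above.

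**Figure D4:**
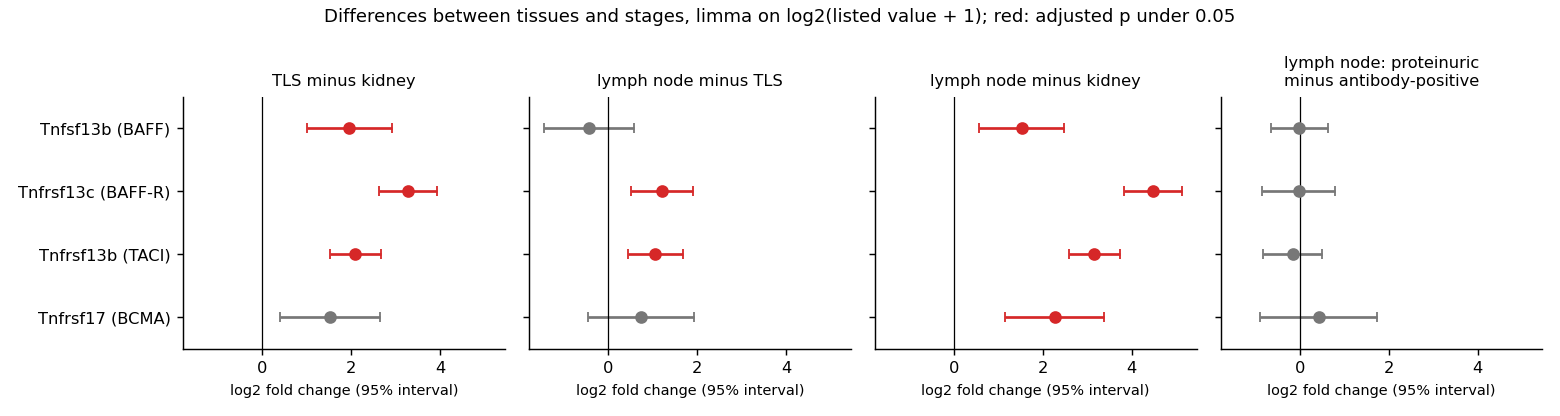
Points give the log2 fold change of each tested member with its 95% interval in the 4 comparisons, in limma on log2(listed value + 1), and red marks an adjusted p under 0.05. BAFF-R and TACI were called by limma in each comparison between tissues, but between lymph node and TLS not by edgeR or DESeq2. The interval of BAFF between lymph node and TLS included 0 (-1.45 to 0.58), and the 4 intervals between the disease stages all included 0.

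Between disease stages within lymph node, no member was called. Proteinuric minus antibody-positive, BAFF differed by -0.01 (95% interval -0.65 to 0.63), BAFF-R by -0.03 (-0.84 to 0.79), TACI by -0.16 (-0.83 to 0.50) and BCMA by 0.43 (-0.89 to 1.75), each with a limma adjusted p of 0.998. Limma called 0 of 6810 genes (0%), with 215 (3.16%) at an unadjusted p under 0.05, edgeR called 0 and DESeq2 13. The libraries of the stages overlapped in all 4 members, as against 8.58% of genes that did not overlap. The intervals reached 0.50 or more on the log2 scale in either direction for each member. The young lymph node, a single library with no test, had 5.37 normalised reads of BAFF, 38.5 of BAFF-R, 23.3 of TACI and 8.95 of BCMA, each within the range of the 6 older lymph nodes.

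Across the 14 libraries, the genes most like each member were named by the Pearson correlation of log2(listed value + 1) among 2269 genes, as a description. These points share tissues, mice and depth. TACI and BAFF-R were alike (r = 0.989). Nearest to BAFF-R were Fcrla (r = 0.991), Spib (0.990), Lpxn (0.987), Fcrl1 (0.987) and Lax1 (0.985), of which Fcrla and Fcrl1 are Fc receptor-like genes of B cells and Spib is a transcription factor of B cells and plasmacytoid dendritic cells. Among the genes nearest to TACI were Glycam1 (0.989), made by high endothelial venules, Tnfrsf13c, Tbc1d10c (0.988) and Il21r (0.987). BAFF was less close to its nearest genes, the antibody constant region genes Ighg2c (0.892) and Ighg2b (0.885), the chemokine Ccl8 (0.885), Iglc2 (0.881) and Mzb1 (0.870). BCMA was nearest to Rpl13a (0.908), Sec11c (0.904), a signal peptidase subunit, Rpl27a (0.885), Ighg1 (0.884) and Rpl36a (0.882), 3 of them ribosomal protein genes. The correlation of BAFF with BAFF-R was 0.772. BAFF and BCMA had fewer reads (80 and 71) than BAFF-R and TACI, and the part of counting error in their lower correlations was not tested.

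Genes of the pathway around the members were counted by list. Of all genes tested, 8.62% were called higher in TLS than in kidney. Lymph node was called higher than kidney in 20.8% and higher than TLS in 1.69%. Some listed genes, among them Traf3ip3, Fcer2a, Tnfrsf4 and Cd27, had no read in any kidney. They could pass the filter only through TLS or lymph node, which favoured this direction, so these counts are a description. Genes of several cell types moved with these lists. Against kidney, limma called all 7 B-cell genes higher, both for TLS (median log2 difference 2.94) and for lymph node (4.18). The same held for all 8 T-cell genes. Of 10 macrophage and monocyte genes, 2 were called higher for TLS and 6 for lymph node. Between TLS and lymph node, 5 of 8 T-cell genes were called higher in lymph node, but no B-cell, macrophage or monocyte gene. The part of these cell types in the list differences was not tested. Of the adaptors that act next to the receptors, 7 of 10 were tested, and 3 were higher in TLS than in kidney, Traf3ip3 (2.30 on the log2 scale), Traf1 (1.64) and Birc2 (1.38), and none lower. Their median was 1.33 against -0.01 over all genes. In lymph node against kidney 6 of 7 were higher, led by Traf3ip3 (3.53), Traf1 (2.69), Birc3 (1.98), Traf5 (1.64) and Birc2 (1.55). Between TLS and lymph node, Traf3ip3 was called, higher by 1.23 in lymph node. TRAF3, the adaptor that BAFF-R removes to start noncanonical NF-kB, was higher in lymph node than in kidney (Traf3, 1.09, limma adjusted p = 0.0317).

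Of the kinases and subunits of NF-kB, 10 of 13 were tested. Between kidney and TLS 1 was called higher in TLS, Nfkbia, an inhibitor that NF-kB itself induces (1.70, limma adjusted p = 0.0232), with a median of 0.90. In lymph node against kidney 6 of 10 were higher, Nfkbie (2.48), Nfkb2 (2.06), Nfkbia (1.95), Nfkb1 (1.83) and Relb (1.83) having the largest differences. Nfkb2 and Relb encode the noncanonical dimer. None of the 10 was called between TLS and lymph node.

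Among 11 tested survival and maturation genes downstream of the receptors, 5 were higher in TLS than in kidney and none lower. These were Bcl2a1b (2.70), Syk (2.66), Bcl2a1a (2.63), Fcer2a (2.47), which encodes CD23, and Pim1 (1.78), and the list had a median of 1.57. Bcl2a1a and Bcl2a1b are near-identical copies of an antiapoptotic gene, so their reads may have been split between them. Lymph node was higher than TLS in Bcl2a1a (1.55) and Fcer2a (1.51). Against kidney, 8 of 11 were higher in lymph node, by 4.18 for Bcl2a1a and 3.99 for Fcer2a, while Bcl2l1 (-1.71), which encodes BCL-XL, and Mtor (-1.20) were lower.

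Genes that process the ligands or hold them at the cell surface went in mixed directions. Sdc1, which encodes syndecan-1, a plasma cell proteoglycan that binds APRIL and is also made by epithelium, was higher in TLS (1.66) and in lymph node (1.44) than in kidney. All 5 tested urothelial genes were also higher in TLS than in kidney, and their part in the Sdc1 difference was not tested. Furin, the protease that cleaves both ligands, was lower in lymph node than in kidney (-1.94), as were Sdc4 (-3.41), Sdc2 (-1.57) and Tnfrsf12a (-3.97), the receptor of TWEAK, and Adam17 was higher (1.32). Lymph node was also below TLS in Tnfrsf12a (-3.08), Sdc4 (-2.42) and Sdc2 (-1.42), where 5 of the 8 tested genes were not called. The nephron genes moved the same way, with 9 of 10 lower in lymph node than in TLS, and their part in these differences was not tested.

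Of the other ligands of the superfamily, 1 of 15 had enough reads to be tested between tissues, and 3 between the lymph node stages. Ltb, which encodes lymphotoxin beta, a signal for lymphoid tissue organisation, was higher in TLS (4.32, limma adjusted p = 0.000145) and in lymph node (5.27) than in kidney. Among 10 tested receptors of 22, 5 were higher in TLS, Tnfrsf4 (1.98), Cd27 (1.88), Fas (1.87), Tnfrsf14 (1.71) and Tnfrsf1b (1.52). Cd27, a receptor found on T cells, was also higher in lymph node than in TLS (1.41, limma adjusted p = 0.0457). Against kidney, 7 were higher in lymph node and 2 were lower, Tnfrsf21 (-3.03) and Ltbr (-1.70), the lymphotoxin beta receptor of stromal cells. Between the lymph node stages none of the pathway genes in these lists was called.

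**Figure D5:**
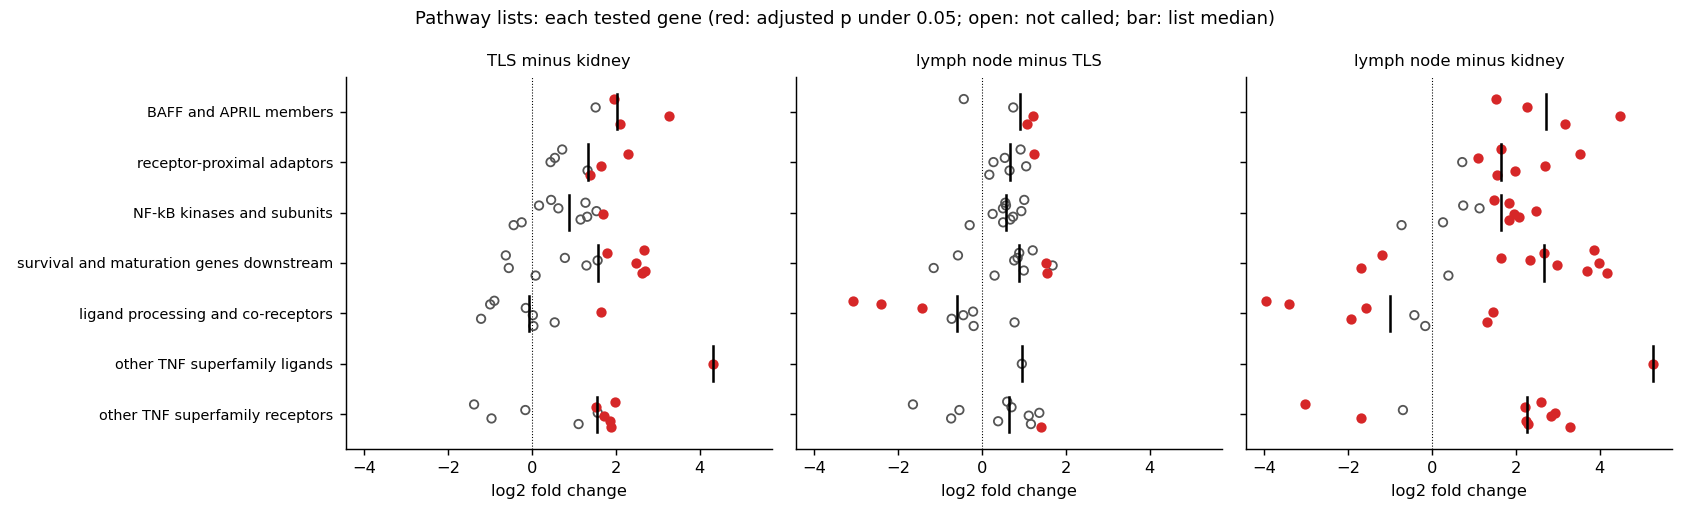
Each point is a tested gene of a pathway list with its log2 fold change in limma, red where the adjusted p was under 0.05, and the bar is the median of the list. Between kidney and TLS the median was 2.02 for the members and 1.33 for the adaptors, and -0.06 for ligand processing and co-receptor genes.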

How the data were processed

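Poly(A) RNA of 14 libraries was sequenced by the authors on an Ion Torrent PGM, and the reads were trimmed, mapped to GRCm38 and counted by gene with the defaults of CLC Genomics Workbench 8. The deposited signal was found to be reads plus 1, divided by a DESeq size factor: times the size factor, 100% of values were whole (tolerance 1e-06), and reads were recovered. Listed values of at least 5 on average were tested on log2(value + 1) by limma 3.58.1 (trend, robust) in R 4.3.3, the 10 proteinuric libraries in one fit and the 6 older lymph nodes in another, and called at a Benjamini-Hochberg adjusted p under 0.05. Ratios of reads (offset 0.5) were compared by exact two-sided permutation tests in scipy 1.17.1. Gene positions are from GENCODE M21. The members and lists were chosen with earlier results of these data known, as was the rule for named genes: up to 5 called genes per pathway list with the largest differences, and the 5 genes most correlated with each member among those with a mean listed value of at least 20, without variable segments. Between kidney and lymph node, Traf3, Bcl2l1, Mtor and Ltbr are named beyond this rule, as are all called genes of the ligand processing list. Alternatives were edgeR 4.0.16 (TMM or DESeq2 size factors), DESeq2 1.42.0, other filters, pseudocounts of 0.1 and 5, a minimum log2 difference of 1, a replicate block for the mouse, fits of only the 2 tissues compared, a fit with neither antibody and T-cell receptor nor ribosomal RNA genes, other denominators, leaving out each library, and, chosen after seeing the data, leaving out the 3 libraries of highest ribosomal RNA share. Ratios in TLS were also compared with those in the 6 older lymph nodes together. The tests were tried on simulated data. Some genes are not reported here, and the B-cell gene list and the B-cell denominator, which were first fixed with 1 gene more, were computed again without it after the data had been seen. Mouse numbers pair tissues of 1 animal: the deviations of 8 same-mouse pairs had a median correlation across genes of 0.114 (-0.335 to 0.454). Those of 25 other pairs had a median of 0.0353 (-0.498 to 0.512). Intervals from pooled or single-library reads and floors cover counting error only, and limma intervals rest on the spread between libraries.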

Additional observations from a re-analysis of the deposited data

Results flagged for a closer look

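BAFF in the kidney of mouse H20 stood apart from the other kidneys: it had 3.37 normalised reads (4 reads), and the kidneys of mice H6, H115 and H117 had 0. Its gap to the nearest kidney was the whole range of the 4 libraries. With the other 3 kidneys tied at 0 reads, any read in a single kidney gives such a gap. Without this library, the difference between TLS and kidney was 2.26 on the log2 scale (limma adjusted p = 0.00409). The same kidney had 20.2 normalised reads of the 7 B-cell genes and 408 of the 10 macrophage and monocyte genes, the highest of the 4 kidneys for both. The kidney of mouse H6, with 0 BAFF reads, had 7.07 and 390. The part of these cells in the BAFF value of mouse H20 was not tested.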

How the results depend on the processing

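The calls of BAFF, BAFF-R and TACI between kidney and TLS, and those of BAFF-R, TACI and BCMA between kidney and lymph node, kept direction under every alternative in which they were tested, although BAFF between kidney and TLS was no longer called with only the 2 tissues (limma adjusted p = 0.0507). The number of members called was 2 to 3 (kidney and TLS), 0 to 2 (TLS and lymph node) and 3 to 4 (kidney and lymph node) when each library was left out in turn. Between TLS and lymph node it was 0 with edgeR under either scaling, with DESeq2, with log2(value + 0.1), with only the 2 tissues and without the 3 libraries of highest ribosomal RNA share, and 1 with no filter or a mean listed value of at least 10. The last filter left 2 members called of 2 tested between kidney and lymph node. Called genes moved from 780 to 518 (only the 2 tissues) and 408 (without the 3 libraries) between TLS and lymph node. Leaving out single libraries gave 530 to 1344 called genes between kidney and TLS (692 without the kidney of mouse H115, 530 without the TLS of mouse H6) and 480 to 977 between TLS and lymph node (480 without the lymph node of mouse H117, 481 without the TLS of mouse H115). Between lymph node stages it gave 0 to 5 (5 without mouse D11), and DESeq2 gave 13. The cause of these shifts was not tested, except that fewer genes or libraries entered the smaller fits. Between TLS and lymph node, calls split into 125 higher and 655 lower in lymph node in limma, 68 and 658 in edgeR with DESeq2 size factors, and 38 and 746 in edgeR with TMM, which moved the median of all genes from 0.039 to -0.14.

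With the mouse as a replicate block, 3, 2 and 4 members stayed called in the 3 comparisons of tissues, with 1080, 781 and 3224 genes. The consensus correlation within mice was -0.00861, so this fit was nearly the main fit and could not show what the pairing does. Same-mouse correlations of deviations were 0.454, 0.364 and 0.351 between kidney and TLS (mice H115, H20 and H6). Between kidney and lymph node they were -0.335, 0.202 and -0.326 (mice H117, H20 and H6). Between lymph node and TLS they were 0.0254 and -0.266 (mice H20 and H6).

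Differences near 0 between the lymph node stages turned sign. BAFF was at 0.10, 0.063 and 0.070 and BAFF-R at 0.068, 0.038 and 0.033 with edgeR TMM, edgeR with DESeq2 size factors and DESeq2. Leaving out single libraries gave -0.10 to 0.12 for BAFF, -0.28 to 0.23 for BAFF-R, -0.33 to 0.023 for TACI and -0.062 to 0.94 for BCMA. Among ratios, the same step gave -0.065 to 0.45 (BAFF-R per B-cell reads), -0.14 to 0.21 (TACI per B-cell reads) and -0.24 to 0.40 (BAFF per myeloid reads) between stages, and -0.13 to 0.66 (BCMA per plasma cell reads) between TLS and lymph node. TACI per B-cell reads was 0.0053 between stages and -0.079 without Cd79b, and BAFF per myeloid reads -0.21 without Csf1r. BCMA per plasma cell reads was -0.32 without Igj and -0.0087 against 6 lymph nodes, where BAFF per myeloid reads was -1.29 (p = 0.0476, exact permutation).

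The libraries held 343825 to 443379 reads, of which 152284 (kidney of mouse H117) to 396820 lay outside ribosomal RNA. At this depth, a member at 2 to 10 reads has a counting error as large as many of these differences, and APRIL was below the filter on low values. With no filter it was not called in any of the 4 comparisons (limma adjusted p = 0.121 to 0.997).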
